A study of Mus musculus with 6 samples.

Results

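The miR-10, miR-99a, miR-100 and miR-125b microRNAs (miRNAs) of the mouse left ventricle are described here in animals that carry a mutation in the heart's main myosin motor and in wild-type animals. They were taken by name as the 7 entries mmu-miR-10a, mmu-miR-10b, mmu-miR-99a, mmu-miR-100, mmu-miR-125b-5p, mmu-miR-125b-3p and mmu-miR-125b*, of 698 mature miRNAs listed in both genotype tables. The small-RNA libraries came from the left ventricles of 3 mice with the R719W mutation in Myh6 (R719W, genotype aMHC719/+ in the labels) and of 3 wild-type mice (WT). Both genotypes had been given cyclosporin, a drug that blocks calcineurin signalling, over 3 weeks, so neither is seen here without the drug. Strain, sex and age of the mice were not stated in the sources used here, and the labels call the libraries biological replicates. Myh6 encodes the α-myosin heavy chain of cardiomyocytes, and hypertrophic cardiomyopathy, an inherited thickening of the heart muscle, can arise from mutant cardiac myosin.

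A miRNA is cut from a hairpin and guides the Argonaute protein to messenger RNAs that pair with its seed, bases 2 to 8. The 2 arms of a hairpin can both give a mature product, and usually 1 arm, the guide, is kept while the other, marked by an asterisk in the older naming, is degraded. The miR-10, miR-99 and miR-100 sequences are thought to descend from 1 ancestral miRNA. miR-10a and miR-10b lie in the Hox gene clusters, whose genes set position along the body axis. miR-99a and miR-100 are known repressors of the growth kinase Mtor, and miR-125b of Lin28, an RNA-binding protein that blocks let-7 processing. miR-99 or miR-100, a let-7 and miR-125 lie together in the genome, in an arrangement that is present more than once in mammals.

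The mature sequences are shown because they set which entries share a seed and which can be confused with each other. They are given 5′ to 3′ with the seed in capitals, from RefSeq (GRCm38.p6), and each was identical to the deposited sequence with U for T:
miR-10a: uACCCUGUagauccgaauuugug
miR-10b: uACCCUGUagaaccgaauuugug
miR-99a: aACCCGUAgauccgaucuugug
miR-100: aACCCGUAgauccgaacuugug
miR-125b-5p: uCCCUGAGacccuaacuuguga
miR-125b-3p: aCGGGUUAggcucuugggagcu
miR-125b*: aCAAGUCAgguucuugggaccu

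miR-10a and miR-10b share 1 seed and are identical at 22 of 23 bases, with the substitution U12A (miR-10a base first, positions from 1 at the 5′ end). miR-99a and miR-100 share another seed and are identical at 21 of 22 bases, with U16A (miR-99a base first). The seeds of these pairs differ, although miR-10a and miR-100 have the stretch GUAGAUCCGAA in common, at positions 7 to 17 of miR-10a and 6 to 16 of miR-100. How reads near to both members of such a pair were divided was not stated in the sources used here, so part of a level of miR-10a could belong to miR-10b, and likewise for miR-99a and miR-100. The miR-125b-3p and miR-125b* entries differ at 5 of 22 bases and have different seeds.

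The loci fall into 4 places (GRCm38.p6, all on the plus strand). miR-10a lies on chromosome 11 at 96317186 to 96317208, where GENCODE M21 has no gene model other than its own hairpin. miR-10b lies on chromosome 2 at 74726074 to 74726096, in introns of Hoxd3 and Hoxd4. miR-100 lies on chromosome 9 at 41531437 to 41531458, in introns of the noncoding genes 3110039I08Rik and Gm49317, and its hairpin also overlaps an exon of Gm48742, a noncoding gene on the other strand. miR-99a lies on chromosome 16 at 77598940 to 77598961, in an intron of the noncoding gene Mir99ahg and, on the other strand, of the protein-coding gene Gm11146.

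miR-125b-5p has the same sequence in 2 hairpins and its reads cannot be assigned to either. By the GENCODE models, Mir125b-1 lies 50421 bases after Mir100 on chromosome 9, with the let-7 hairpin Mirlet7a-2 between them, and Mir125b-2 lies 47272 bases after Mir99a on chromosome 16, with Mirlet7c-1 between them. The 3′ arms, in contrast, differ. miR-125b-3p matched only Mir125b-1 (chromosome 9, 41581980 to 41582001), within introns of the same 2 noncoding genes as miR-100 and over an exon of Gm28119, a noncoding gene on the same strand. miR-125b* matched only Mir125b-2 (chromosome 16, 77646318 to 77646339), within an intron of Mir99ahg. RefSeq matches on a chromosome not named here were set aside before any locus was assigned, so a copy there would not be listed. The Mir125b-1 hairpin (chr9:41581926-41582002, plus strand) is shown with both mature arms in capitals, because miR-125b-3p is the entry that varied most between the R719W libraries:
Mir125b-1 hairpin: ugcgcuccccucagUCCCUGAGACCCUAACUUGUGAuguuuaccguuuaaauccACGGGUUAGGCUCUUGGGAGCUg

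Reads on miRNAs numbered 865845 to 1168379 in the R719W libraries and 765425 to 1192020 in the WT libraries. Levels are read counts scaled by the trimmed mean of M-values (TMM) to counts per 1000000 reads (CPM), and 3 reads, the limit that a count of 0 allows, came to 2.40 to 4.06 CPM by library. Muscle miRNAs (miR-1, miR-133a, miR-133b, miR-208a, miR-208b and miR-499) summed to 398348 to 547475 CPM in R719W and 523748 to 786672 CPM in WT, with 1 of 6 called. Most of the sum was miR-1, which overlapped between the genotypes and was not called (log2 fold change −0.38). Neither miR-208a (−0.58), miR-133a (−0.15) nor miR-208b, which was positive (0.67), was called, and miR-133b was not tested. The liver miRNA miR-122 stayed at no more than 1.02 CPM in R719W and at 0 in WT. All 3 fibroblast markers were called higher, and summed to 955 to 1323 CPM in R719W and 166 to 203 CPM in WT. Their log2 fold changes were 3.25 for miR-214, 2.83 for miR-199a-5p and 0.87 for the entry that joins miR-199a-3p with miR-199b. Leukocyte markers summed to 1062 to 1388 CPM in R719W and 841 to 977 CPM in WT, with 1 of 5 called. The called marker, miR-150, was lower in R719W (log2 fold change −0.80). miR-155 also had a negative log2 fold change (−0.52), while those of miR-142-3p (0.64) and miR-223 (0.56) were positive. miR-142-5p was not tested. Endothelial markers summed to 15193 to 16805 CPM in R719W and 17980 to 22206 CPM in WT, with 0 of 2 called. The part of these cell types in the results below was not tested. In bulk tissue, fewer cells of a type and less of a miRNA per cell cannot be told apart. R719W replicate 1 differed from the other R719W libraries more than these differed from each other (chi-square per degree of freedom 350 and 320 against 153), so results are also given without it.

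None of the 7 entries passed an adjusted p of 0.05 between R719W and WT. The edgeR quasi-likelihood test, adjusted by Benjamini-Hochberg, called 36 of the 181 miRNAs tested (19.9%), 23 higher (12.7%) and 13 lower (7.18%). The split moved with the scaling, to 34 higher and 3 lower with library totals alone, 28 and 2 with limma on the deposited CPM plus 1, 12 and 16 with DESeq2, and 12 and 15 with its size factors in edgeR. At an unadjusted p below 0.05 there was 1 of the 7, miR-125b-3p, against 68 of the 181 (37.6%). DESeq2 on the same counts also called 0 of the 7 and 28 of the 181 (15.5%), and limma on the log2 of the deposited CPM plus 1 called 0 and 30 (16.6%; 18.2% with a pseudocount of 10). With DESeq2's size factors in edgeR, 0 of the 7 and 14.9% of the 181 were called. The libraries of the genotypes did not overlap in 1 of the 7, miR-100, with R719W above, while they did not overlap in 40.9% of all miRNAs tested, with R719W above in 24.9%. All 7 entries passed the filter on low counts. The median log2 fold change was 0.21 over the 7 and 0.10 over the 181. The log2 fold change was above 0 in 5 of the 7 and in 54.7% of the 181.

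**Figure D1:**
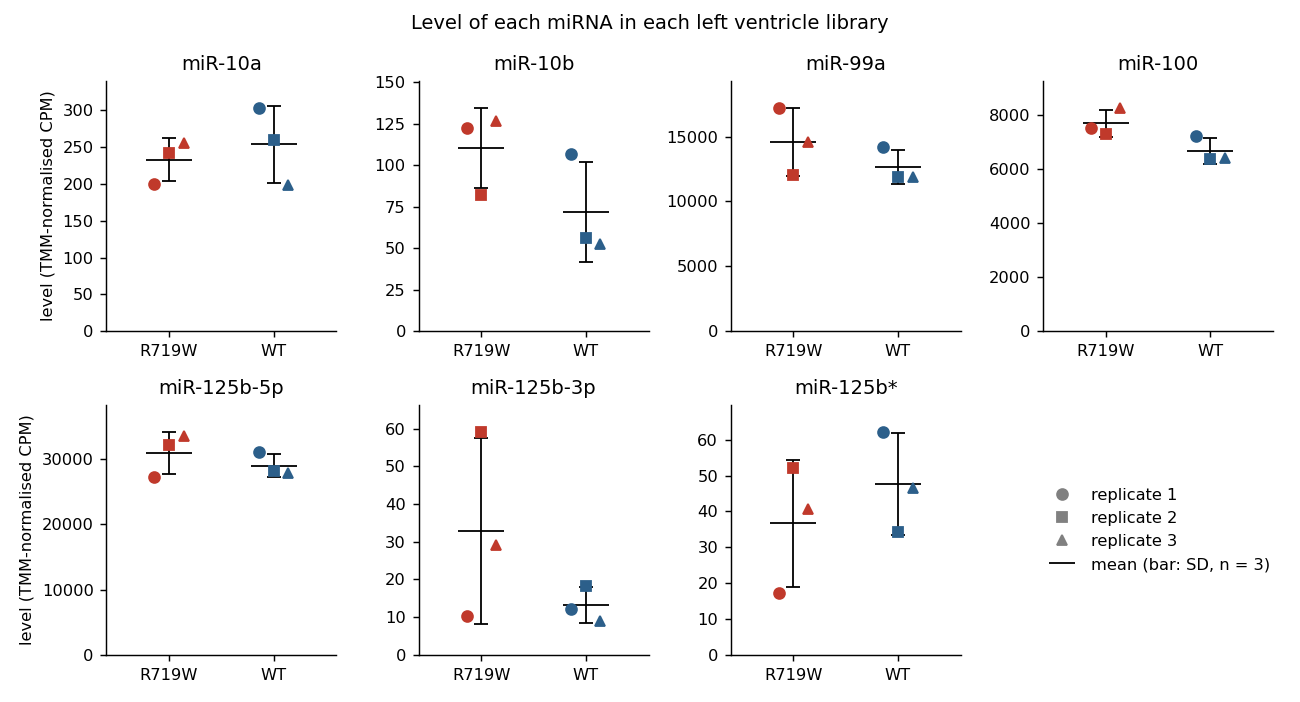
Level of each of the 7 entries in TMM-normalised CPM (vertical axes start at 0 and differ between panels) in the R719W libraries and the WT libraries. Marker shapes give the replicate number, which the labels do not tie to pairs of animals, and bars give the mean and SD (n = 3). The genotypes overlap in every panel except miR-100, and the 3 R719W libraries lie farthest apart for miR-125b-3p, at 10.2, 59.2 and 29.2 CPM.

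The guide entry miR-125b-5p was the most abundant of the 7 and ranked 5 among all miRNAs by mean level. Its level was 27301, 32142 and 33477.5 CPM in R719W replicates 1, 2 and 3, against 31012, 28149.8 and 27875 CPM in WT replicates 1, 2 and 3. The lowest of the 6 libraries was R719W replicate 1 and the highest R719W replicate 3, so the WT libraries lay within the range of R719W. The means were 30973 ± 3249.6 CPM in R719W and 29012.5 ± 1737 CPM in WT (SD, n = 3), a 1.07-fold difference with a 95% interval of 0.811 to 1.41. The log2 fold change was 0.09 (SE 0.18, edgeR adjusted p = 0.674), and its sign turned under DESeq2's size factors (−0.014).

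miR-99a, which shares its seed with miR-100, ranked 13. It stood at 17215, 12008 and 14571 CPM in R719W replicates 1, 2 and 3, and at 14177, 11914 and 11867 CPM in WT replicates 1, 2 and 3. R719W replicate 1 was the highest, while R719W replicate 2 lay among the WT values. The means were 14598 ± 2603 CPM in R719W and 12653 ± 1320.4 CPM in WT (SD, n = 3; log2 fold change 0.21 with an SE of 0.20, edgeR adjusted p = 0.431). Without R719W replicate 1 the log2 fold change was 0.02.

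miR-100, at rank 23, was the entry with the smallest spread between R719W replicates, a coefficient of variation of 6.59% in R719W and 7.18% in WT. It stood at 7503, 7294 and 8256 CPM in R719W replicates 1, 2 and 3, against 7212, 6368 and 6399.7 CPM in WT replicates 1, 2 and 3. All 3 R719W levels were above all 3 WT levels, with R719W replicate 2 close to WT replicate 1. The difference was 1.15-fold (95% interval 0.889 to 1.498; log2 fold change 0.21, SE 0.17, edgeR adjusted p = 0.363). For miR-125b-5p, miR-99a and miR-100 the 95% intervals of R719W over WT lay within 0.811-fold to 1.56-fold.

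The miR-10 pair was far less abundant than the other guide entries, at ranks 73 and 102. miR-10a stood at 199.7, 242 and 256 CPM in R719W replicates 1, 2 and 3, and at 303, 259.8 and 199 CPM in WT replicates 1, 2 and 3. All R719W levels lay within the WT range, with WT replicates 1 and 2 above every R719W library. The log2 fold change was −0.12 (SE 0.22, edgeR adjusted p = 0.660), and its sign turned with library totals alone (0.090). miR-10b stood at 122, 82.4 and 126 CPM in R719W replicates 1, 2 and 3, against 107, 56.1 and 52.5 CPM in WT replicates 1, 2 and 3. R719W replicates 1 and 3 were above all WT libraries, and WT replicate 1 lay above R719W replicate 2.

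The mean level of miR-10b was 110 ± 24.3 CPM in R719W and 71.9 ± 30.4 CPM in WT (SD, n = 3), a 1.54-fold difference with a 95% interval of 0.956 to 2.49. The log2 fold change was 0.63 (SE 0.31) and did not pass (edgeR adjusted p = 0.160). Leaving out 1 library at a time moved it between 0.43 and 0.93, the highest value without WT replicate 1, and the smallest adjusted p among all 16 alternatives was 0.0608. In reads, miR-10b had 103 to 134 in R719W libraries and 46 to 79 in WT libraries, so counting error alone was wide. The exact Poisson 95% interval of WT replicate 3 ran from 39.2 to 68.9 CPM and that of R719W replicate 2 from 67.3 to 99.9 CPM.

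The 3′ arms of miR-125b were at the low end, with 10 to 74 reads in R719W and 9 to 46 reads in WT for the 2 entries. miR-125b-3p, from the chromosome 9 hairpin shown above, had 10, 74 and 31 reads in R719W replicates 1, 2 and 3, against 9, 15 and 9 reads in WT replicates 1, 2 and 3. Scaled, these were 10.2, 59.2 and 29.2 CPM in R719W and 12.2, 18.3 and 9.09 CPM in WT. R719W replicates 2 and 3 were above all WT libraries, while R719W replicate 1 lay among them. The exact Poisson 95% interval of R719W replicate 2 ran from 46.5 to 74.3 CPM and that of R719W replicate 1 from 4.88 to 18.7 CPM, so the gap between these 2 libraries was larger than counting error.

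The mean of miR-125b-3p was 32.9 ± 24.7 CPM in R719W and 13.2 ± 4.68 CPM in WT (SD, n = 3), a 2.56-fold difference with a 95% interval of 1.05 to 6.22. The log2 fold change of 1.36 (SE 0.57) did not pass (edgeR adjusted p = 0.111). This entry turned on single libraries. Without R719W replicate 1 it was 1.74 (SE 0.36, edgeR adjusted p = 0.000625), in a fit where 56 of 183 miRNAs were called (30.6%). Without R719W replicate 2 it was 0.50 (SE 0.49, edgeR adjusted p = 0.416), in a fit with 40 of 184 called (21.7%). It was also called with library totals alone (log2 fold change 1.57, 20.4% of the 181 called) and with no filter on low counts (1.26, 12.4% of 387 called). Without R719W replicate 3, WT replicate 1, WT replicate 2 or WT replicate 3, 0 of the 7 entries were called, where 3.70%, 2.07%, 10.6% and 2.15% of all tested were.

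miR-125b*, from the chromosome 16 hairpin, had 17, 65 and 43 reads in R719W replicates 1, 2 and 3, and 46, 28 and 46 reads in WT replicates 1, 2 and 3. Scaled, these were 17.3, 52.0 and 40.6 CPM in R719W and 62.3, 34.1 and 46.5 CPM in WT. R719W replicate 1 was again the lowest of the 6, and R719W replicates 2 and 3 lay within the WT range. The log2 fold change was −0.35 (SE 0.38, edgeR adjusted p = 0.486), with −0.06 without R719W replicate 1 and −0.80 without R719W replicate 2.

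**Figure D2:**
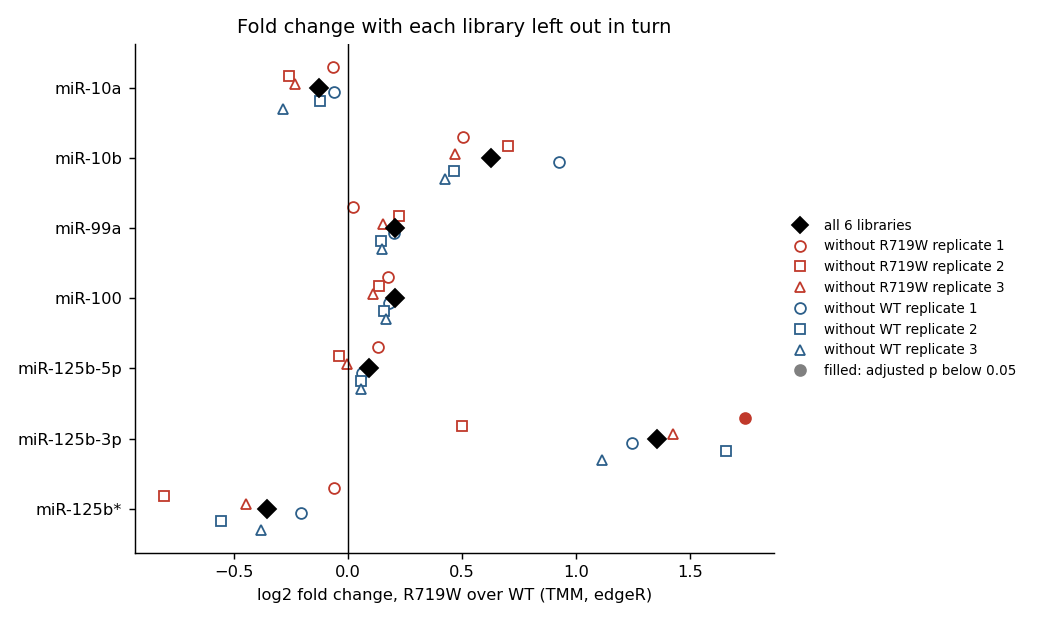
Log2 fold change of R719W over WT (horizontal axis, relative to TMM) for each of the 7 entries with all 6 libraries (diamonds) and with each library left out in turn (open symbols; filled where the edgeR adjusted p was below 0.05). miR-125b-3p runs from 0.50 to 1.74 and is the entry with a filled symbol, without R719W replicate 1, while miR-100 stays between 0.11 and 0.18 with any 1 library left out.

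The order of mean levels was miR-125b-5p, miR-99a, miR-100, miR-10a, miR-10b, miR-125b* and miR-125b-3p in both genotypes. Levels of neighbours did not overlap in any library for the first 5 places. miR-125b* and miR-125b-3p overlapped in R719W and did not in WT. Each mature sequence is 22 or 23 bases long. Ligation and amplification differ between sequences, so the distance between 2 entries is less reliable than the difference of 1 entry between libraries.

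Together the 7 entries took 4.98%, 5.55% and 6.95% of all miRNA reads in R719W replicates 1, 2 and 3, against 4.78%, 5.01% and 3.86% in WT replicates 1, 2 and 3. The Wilson 95% intervals of these shares were within 4.94% to 7.002% over the R719W libraries and 3.82% to 5.06% over the WT libraries. The libraries overlapped, since WT replicate 2 was above R719W replicate 1. The mean share was 5.83% ± 1.01 in R719W and 4.55% ± 0.612 in WT (SD, n = 3; exact permutation test, two-sided, p = 0.2). No p below 0.1 is possible with 3 against 3 libraries. Without the 5 most abundant other miRNAs in the total, the share was 16.2% ± 1.67 in R719W and 14.3% ± 0.656 in WT (SD, n = 3; exact permutation p = 0.3). These shares are not scaled by TMM, and the median log2 fold change of a miRNA was 0.21 higher with library totals alone than with TMM.

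Ratios of reads within a library do not depend on how libraries are scaled, and 9 were compared between the genotypes. The genotypes did not overlap in 3 of the 9, while in level they did not overlap in 40.9% of all miRNAs tested. In the balance of the abundant entries the R719W libraries lay farther apart than the WT libraries. miR-99a over miR-100 was 2.29, 1.65 and 1.76 in R719W replicates 1, 2 and 3, against 1.97, 1.87 and 1.85 in WT replicates 1, 2 and 3, and the WT values lay within the range of R719W. On the log2 scale the means were 0.91 ± 0.25 in R719W and 0.92 ± 0.05 in WT (SD, n = 3), a difference of −0.01 (exact permutation p = 1). miR-99a plus miR-100 over miR-125b-5p showed the same contrast in spread, at 0.905, 0.601 and 0.682 in R719W replicates 1, 2 and 3, against 0.690, 0.649 and 0.655 in WT replicates 1, 2 and 3. R719W replicate 1 was the highest and R719W replicate 2 the lowest. The log2 difference was 0.11 (exact permutation p = 0.8), and −0.055 without R719W replicate 1.

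miR-10a over miR-10b was lower in R719W on average. The ratio was 1.63, 2.93 and 2.02 in R719W replicates 1, 2 and 3, and 2.82, 4.59 and 3.76 in WT replicates 1, 2 and 3. R719W replicate 2 lay just above WT replicate 1, so the genotypes overlapped. The log2 difference was −0.78, and the exact permutation p was 0.2 (0.36 adjusted over the 9 ratios). The sum of miR-10a and miR-10b over the sum of miR-99a, miR-100 and miR-125b-5p differed by −0.04 on the log2 scale (exact permutation p = 0.8).

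The balance of the 3′ arms, miR-125b-3p over miR-125b*, compares products that each come from 1 hairpin. It was 0.600, 1.14 and 0.724 in R719W replicates 1, 2 and 3, against 0.204, 0.544 and 0.204 in WT replicates 1, 2 and 3. All 3 R719W ratios exceeded all 3 WT ratios, and the lowest R719W value was close to the highest WT value. The log2 ratio was −0.34 ± 0.47 in R719W and −1.82 ± 0.82 in WT (SD, n = 3), a 2.79-fold difference with an exact permutation p of 0.1, the smallest that 3 against 3 libraries can give, and 0.3 adjusted over the 9 ratios. It was 1.68 on the log2 scale without R719W replicate 1 and between 1.22 and 1.95 with any 1 library left out. The WT ratios rest on 9 to 15 reads of miR-125b-3p. The ratio of miR-99a to miR-100, the abundant neighbours of these hairpins on chromosomes 16 and 9, overlapped between the genotypes, as given above. Transcription of these loci was not tested.

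The guide over each 3′ arm overlapped between genotypes. miR-125b-5p over miR-125b-3p was 2553, 539 and 1126 in R719W replicates 1, 2 and 3, against 2412, 1489 and 2904 in WT replicates 1, 2 and 3 (log2 difference −0.92, exact permutation p = 0.3). The difference was −1.49 without R719W replicate 1 and −0.37 without R719W replicate 2. miR-125b-5p over miR-125b* was 1532, 613 and 816 in R719W replicates 1, 2 and 3, against 493, 810 and 593 in WT replicates 1, 2 and 3 (log2 difference 0.56, exact permutation p = 0.2), and the difference was 0.19 without R719W replicate 1 and 0.85 without R719W replicate 2. R719W replicate 1 was at or near the top of both ratios, and had few reads of both 3′ arms.

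**Figure D3:**
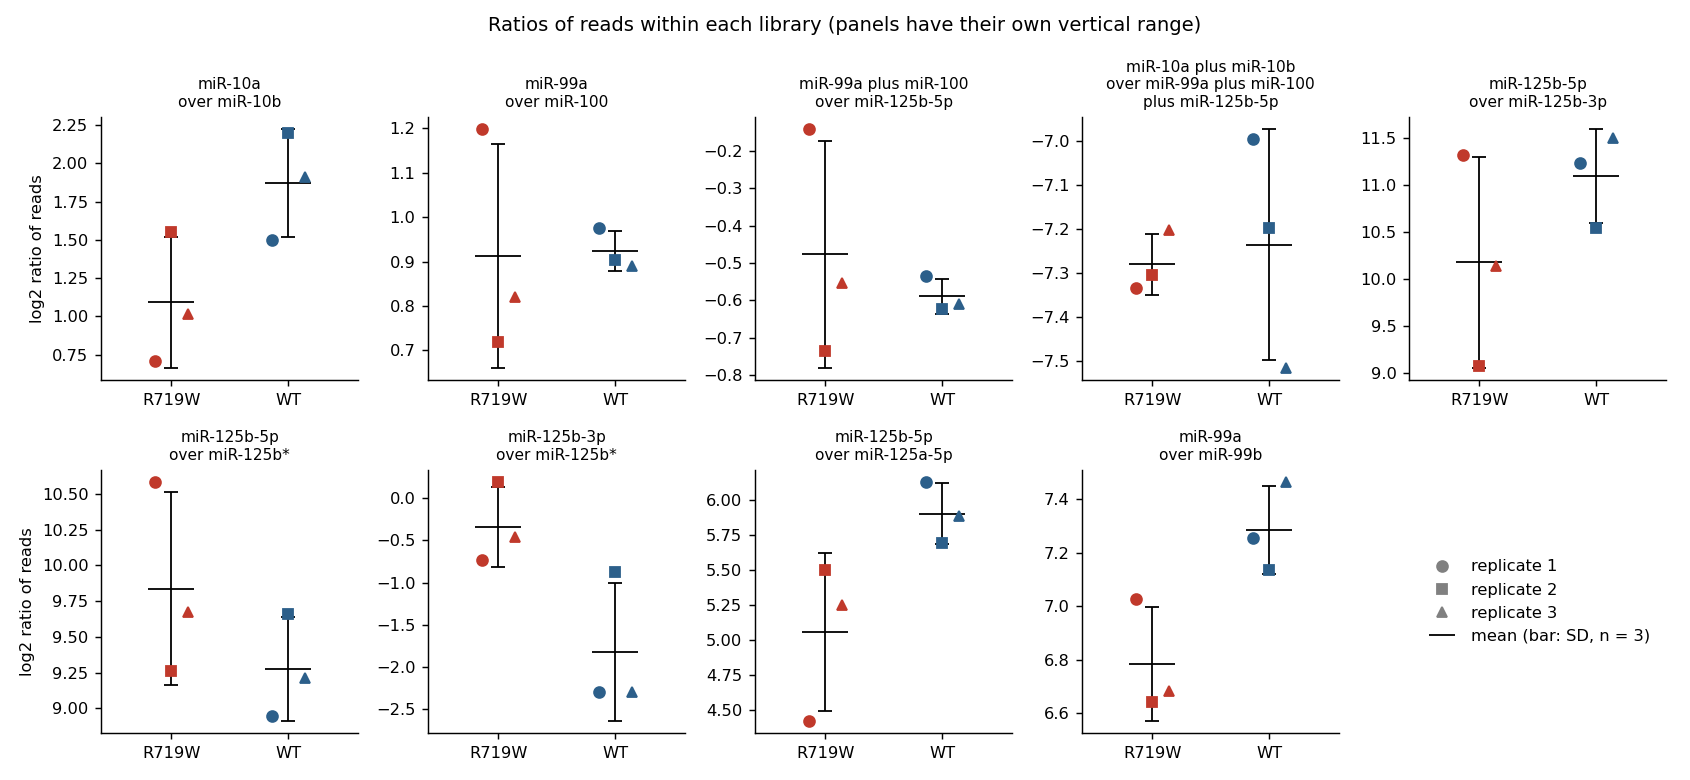
Log2 ratio of reads within each library (vertical axes, not starting at 0, with a range of their own) for the 9 ratios, in R719W and WT; marker shapes give replicate numbers and bars the mean and SD (n = 3). The genotypes do not overlap for miR-125b-3p over miR-125b*, miR-125b-5p over miR-125a-5p and miR-99a over miR-99b, each with an exact permutation p of 0.1. In level, they do not overlap in 40.9% of all miRNAs tested.

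The related miRNAs include a paralogous group on chromosome 17, miR-99b, let-7e and miR-125a, in which miR-99b has the seed of miR-99a and miR-125a-5p that of miR-125b-5p. They are shown because the same seeds stand on either side of the comparison:
miR-99b: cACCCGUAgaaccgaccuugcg
miR-125a-5p: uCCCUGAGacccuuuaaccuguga

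Of 27 names of cluster mates, paralogs, other arms and other Hox cluster miRNAs, 17 were listed in the tables, as 16 entries, and 8 entries were tested. Of these 8, 4 were called higher, 0 lower and 4 did not pass, with a median log2 fold change of 0.56 (0.10 over all tested; 12.7% of all tested were called higher, a share that moves with the scaling as above). The 4 were miR-125a-5p, miR-99b, miR-99b* and let-7e. The list was drawn up with earlier results of these data known, so its count supports nothing on its own. miR-125a-5p averaged 954 ± 291 CPM in R719W and 485 ± 51.8 CPM in WT (SD, n = 3; log2 fold change 0.98 with an SE of 0.24, edgeR adjusted p = 0.0258). miR-99b averaged 131 ± 10.8 CPM in R719W and 80.96 ± 12.96 CPM in WT (SD, n = 3; log2 fold change 0.70 with an SE of 0.21, edgeR adjusted p = 0.0412).

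The log2 fold change was 0.89 for miR-99b* (SE 0.24) and 0.67 for let-7e (SE 0.18), both with an edgeR adjusted p of 0.0276. With 1 library left out, miR-99b, miR-99b* and let-7e each remained called only without R719W replicate 1, and miR-125a-5p was lost without R719W replicate 3, WT replicate 1 or WT replicate 3. miR-99b, miR-99b* and let-7e were also lost with DESeq2, with its size factors in edgeR, with totals without the 5 most abundant miRNAs and with no filter on low counts. With 1 library left out, the log2 fold change stayed between 0.56 and 0.71 for miR-99b, 0.66 and 0.97 for miR-99b*, 0.53 and 0.71 for let-7e, and 0.66 and 1.04 for miR-125a-5p. let-7a and let-7c, the most abundant of the list and the cluster mates of miR-100 and miR-99a, did not pass. Their log2 fold changes were 0.18 for let-7a (SE 0.29) and 0.35 for let-7c (SE 0.28). Reads of let-7a and of let-7c can also come from other loci. The entry that joins let-7c-2* with let-7a*, at 8 to 24 reads, was the tested related entry with a negative log2 fold change (−0.39, SE 0.37, edgeR adjusted p = 0.431). Among other miRNAs of the Hox clusters, miR-196a and miR-196b had at most 1 read in any library. miR-615-3p and miR-615-5p had 0 in each, which allows up to 2.40 to 4.06 CPM by library.

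The abundant entries and their chromosome 17 paralogs were also compared as ratios. Both paralogs had been called higher, with every R719W library above every WT library, so the ratios are not independent of those calls. miR-125b-5p over miR-125a-5p was 21.4, 45.3 and 38.1 in R719W replicates 1, 2 and 3, against 69.97, 51.8 and 59.3 in WT replicates 1, 2 and 3. Every R719W library lay below every WT library, with R719W replicate 1 the lowest. The log2 difference was −0.85, a ratio 0.556 of that in WT (exact permutation p = 0.1, 0.3 adjusted over the 9 ratios), and −0.53 without R719W replicate 1. miR-99a over miR-99b was 131, 99.7 and 103 in R719W replicates 1, 2 and 3, against 153, 141 and 177 in WT replicates 1, 2 and 3. Again every R719W library was below every WT library, with a log2 difference of −0.50 (exact permutation p = 0.1, 0.3 adjusted over the 9 ratios) and −0.62 without R719W replicate 1. Neither difference can pass 0.05 in an exact test of this size.

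**Figure D4:**
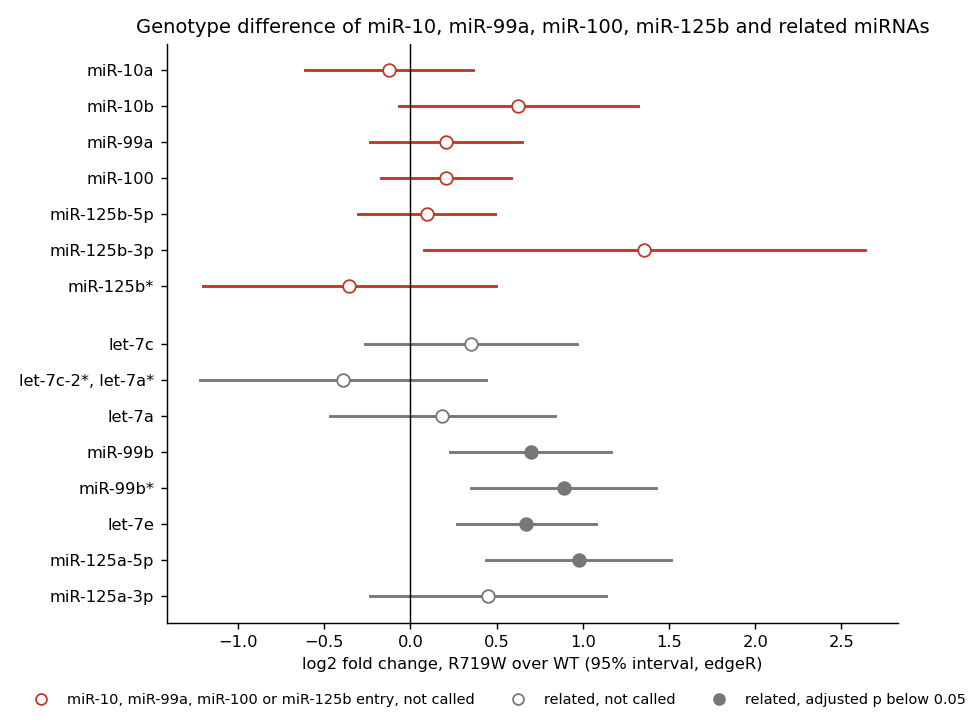
Log2 fold change of R719W over WT (horizontal axis, TMM) with its 95% interval from edgeR for the 7 entries (top) and the 8 tested related entries (bottom); filled points have an adjusted p below 0.05. The interval of miR-125b-5p lies between −0.30 and 0.49, and that of miR-125a-5p, which has the same seed, between 0.44 and 1.51.

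Profiles over the 6 libraries were set side by side by the root-mean-square difference of log2 levels, each centred on its own mean, a description over 6 samples of 2 genotypes that share their scaling. Among the 7 entries, miR-100 and miR-125b-5p were the nearest pair (0.0996), followed by miR-99a and miR-100 (0.148), and miR-99a and miR-125b-3p the farthest (1.01). The miRNAs outside the 7 nearest to miR-125b-5p were miR-322 (0.0737) and miR-542-5p (0.110), and miR-322 was also nearest to miR-100 (0.0825, then miR-425* at 0.127). miR-16 (0.0760) and miR-187 (0.133) were nearest to miR-99a, and miR-203 (0.162) and miR-542-5p (0.176) to miR-10a. For comparison, the median difference to all tested miRNAs was 0.399 to 0.441 for these 4. Their own profiles were nearly flat, with a root mean square about the mean of 0.112 for miR-125b-5p, 0.131 for miR-100, 0.198 for miR-99a and 0.215 for miR-10a, so small distances among them say little beyond this flatness.

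The other 3 entries had no neighbour as close. miR-10b was nearest to miR-339-3p (0.201) and then to miR-99b (0.273), against a median of 0.604. miR-125b* was nearest to miR-30c (0.192) and miR-204 (0.229), which were likewise low in R719W replicate 1, with 88 and 47 reads there. miR-125b-3p was nearest to miR-500 and miR-127, both at 0.50, against a median of 0.996.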

How the data were processed

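The authors deposited 1 table per genotype with unnormalized read counts per mature miRNA and a normalized column, per the file headers. The deposited normalized value equals CPM, reads per 1000000 reads on that library's listed miRNAs, within a relative gap of 4.6e-15. Per the labels' protocols, a column kit gave total RNA, from which barcoded small-RNA libraries were made. Aligner, mismatches allowed, annotation release and build were not given in the sources used here. Of the lines, 2 per file were not analysed here.

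Columns were assigned to samples by barcode. Counts were filtered with filterByExpr (minimum count 10, total 15; 181 of 698 kept), scaled by TMM, and compared with edgeR 4.0.16 (glmQLFit, glmQLFTest, two-sided; Benjamini-Hochberg over the 181; R 4.3.3). Biological coefficient of variation was 22.5%. SE is the absolute log2 fold change over the square root of F, and 95% intervals use its t quantile. Ratios used a pseudocount of 0.5 reads and exact permutation tests (SciPy 1.17.1). The Poisson and Wilson intervals cover counting error only. As reads carry no molecular identifiers, these intervals leave out noise from amplification. Alternatives used DESeq2 1.42.0 and limma 3.58.1. On 20 simulated sets of 181 miRNAs for this comparison, the test recovered 70.8% of the 2-fold and 99.0% of the 4-fold changes. Of its calls there, 4.63% were false. The simulated counts had no added difference in scaling and no outlying library. Recovery was averaged over all levels, so it does not give that of entries with few reads, such as the 3′ arms of miR-125b. The pairs of replicates of a genotype differed by more than sampling noise (chi-square per degree of freedom 35.8 to 350).

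The 7 entries were all named; related miRNAs came from a list, with values for those called and the 3 most abundant; nearest profiles are the 2 closest per entry. Entries and lists were chosen with earlier results of these data known.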

Additional observations from a re-analysis of the deposited data

How the results depend on the processing

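The count of all called miRNAs was 20 with totals without the 5 most abundant miRNAs, 22 with at least 100 reads in 3 libraries, and 4 to 56 with 1 library left out, against 36. Of the 7 entries 1, miR-125b-3p, was called with library totals alone (log2 fold change 1.57), with no filter on low counts (1.26) and with the replicate number as a block (1.21, 30 calls in all); with 1 library left out 0 to 1 was called. The cause was not tested. The calls of miR-99b, miR-99b* and let-7e were lost with the block. The labels do not say whether the numbers pair animals. Same-numbered libraries had deviations correlated at −0.188, −0.392 and 0.0116, which cannot decide it with so few libraries. The sign turned for miR-10a with library totals alone (0.090) and with limma on the deposited CPM plus 1, 0.5 or 10 (0.096, 0.097 and 0.092), and for miR-125b-5p with DESeq2 (−0.014), with its size factors in edgeR (−0.014) and with 1 library left out (−0.040 to 0.13). With 1 library left out, log2 differences ran from −0.15 to 0.086 for miR-99a over miR-100, from −0.055 to 0.24 for miR-99a plus miR-100 over miR-125b-5p, and from −0.18 to 0.076 for miR-10a plus miR-10b over the abundant 3. The other 6 ratios and the share of reads kept their sign in every alternative run, the share with a difference of 0.715 to 1.70 percentage points. At least 100 reads in 3 libraries left out both 3′ arms of miR-125b. Depth limits those arms, at 9 to 74 reads.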

Other observations

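Sums over a shared seed overlapped between the genotypes in both groups below. The seed of miR-99a, miR-100 and miR-99b reached 24849, 19422 and 22969 CPM in R719W replicates 1, 2 and 3, and 21481, 18366 and 18333 CPM in WT replicates 1, 2 and 3. miR-99a and miR-100 gave 99.5% of its reads over the 6 libraries. The seed of miR-125b-5p, miR-125a-5p and miR-351 reached 28592, 32861 and 34368 CPM in R719W replicates 1, 2 and 3, and 31463, 28697 and 28353 CPM in WT replicates 1, 2 and 3, with 97.6% of its reads from miR-125b-5p. miR-351, named after its values were seen, had 12 to 15 reads in R719W and 4 to 8 in WT and was not tested. miR-125b-5p exceeded miR-125a-5p 21.4-fold to 45.3-fold in R719W and 51.8-fold to 69.97-fold in WT.

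The 3′ arms made up 0.101%, 0.345% and 0.208% of miR-125b reads in R719W replicates 1, 2 and 3 (Wilson 95% intervals 0.0692% to 0.146%, 0.292% to 0.407% and 0.166% to 0.261%). In WT replicates 1, 2 and 3 they made up 0.239%, 0.186% and 0.199% (Wilson 95% intervals 0.184% to 0.311%, 0.138% to 0.250% and 0.153% to 0.259%). The 2 extremes were both R719W libraries. The other arms of the miR-10 hairpins, miR-10a* and miR-10b*, had at most 1 read in any library.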
